A study of Mus musculus with 9 samples.

Results

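Cyp24a1, Cyp27b1 and Lrp2 are 3 genes through which the kidney handles vitamin D. They were chosen by name, with earlier results of these data known, and are 3 of the 489 distinct genes of the deposited tables. The kidneys came from male mice of the outbred ICR stock in 3 groups. The young group was 2 months old and untreated, the old group was 20 months old and untreated, and the 3HB group was 20 months old and had drunk water with the sodium salt of 3HB (3-hydroxybutyrate, a ketone body) at 1 g/L from 11 months of age. Each group had 3 numbered kidney samples, taken here as 1 mouse each. Neither the labels nor the methods say that every sample was a separate animal, so the p-values measure the spread between these samples.

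The liver turns vitamin D into 25-hydroxyvitamin D, which circulates bound to a carrier protein and is filtered in the glomerulus. In the proximal tubule, megalin, the large endocytic receptor encoded by Lrp2, takes the filtered carrier back up together with its vitamin. The mitochondrial P450 enzyme encoded by Cyp27b1 (1-alpha-hydroxylase) then makes the active hormone calcitriol, and a related mitochondrial P450 encoded by Cyp24a1 (24-hydroxylase) inactivates both calcitriol and its precursor. Calcitriol and FGF23 are known to induce Cyp24a1 and to repress Cyp27b1, while parathyroid hormone acts in the opposite direction on both.

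Each deposited table lists only the genes that the authors had called for 1 comparison, so a gene that was not called is absent. Cyp24a1 and Lrp2 were in the table of 3HB against old, with 113 genes, and Cyp27b1 was in the table of young against old, with 389 genes. The values of all 9 mice were given for each gene in either table. A difference in the comparison for which a gene was listed had therefore been used by the authors to select it and is described here without support from its test. The values are normalized expression values whose unit was not named. In young mouse 1, the low values (above 0) of 8 short genes with a single annotated transcript went down from 0.51 at 348 nt to 0.39 at 380 nt and at no step went up with length. The fall was steeper than in proportion to length. The read counts of these genes are unknown, so whether the scale is plain division by transcript length cannot be told. Levels of different genes are compared here only as given by a scale whose exact form is unknown. Total reads were not in the tables, so the depth behind the values is unknown.

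In the mouse genome (build GRCm38, GENCODE M21), Cyp24a1 (ENSMUSG00000038567) lies on the minus strand at chr2:170482708-170497145, and its single transcript of 3560 nt has 12 exons. Lrp2 (ENSMUSG00000027070) lies on the same strand and chromosome at chr2:69424340-69586065, and its longest coding transcript has 15460 nt in 79 exons. Cyp27b1 (ENSMUSG00000006724) lies on the plus strand at chr10:127048250-127053006, and its longest coding transcript has 2380 nt in 9 exons. The bases before the start of transcription are shown for Cyp27b1 and Lrp2, because these promoters differ in composition. RefSeq promoters of build GRCm38.p6 held an entry for these 2 members and none for Cyp24a1. The windows were the 250 bases before the RefSeq start, for Cyp27b1 at chr10:127047996-127048245 and for Lrp2 at chr2:69586030-69586279, and they are given from 5′ to 3′ on the strand of the gene. The RefSeq and GENCODE starts of Lrp2 differ, so that the last 36 bases of its window lie inside the GENCODE gene and are not shown, which leaves 214 bases at chr2:69586066-69586279. Capitals mark matches to any of 4 motifs searched on both strands, which were the nuclear receptor half-sites AGGTCA and GGTTCA and the TATA box forms TATAAA and TATATA (the last pair can share bases).
Cyp27b1: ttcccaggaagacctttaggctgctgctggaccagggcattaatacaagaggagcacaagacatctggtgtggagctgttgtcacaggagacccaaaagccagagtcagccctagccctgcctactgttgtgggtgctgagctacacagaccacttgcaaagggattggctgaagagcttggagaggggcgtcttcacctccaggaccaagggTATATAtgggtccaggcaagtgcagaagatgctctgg
Lrp2: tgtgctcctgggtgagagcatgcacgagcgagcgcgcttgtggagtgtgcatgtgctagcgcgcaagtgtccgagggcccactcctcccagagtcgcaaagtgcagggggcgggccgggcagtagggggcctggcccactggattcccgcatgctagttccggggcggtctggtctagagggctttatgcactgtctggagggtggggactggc
The Cyp27b1 promoter held TATATA at positions -37 to -32 from the start, a motif found in 5.01% of 32536 mouse promoters of this length. No other motif of the 4 matched in either window, and AGGTCA was found in 14%, GGTTCA in 8.81% and TATAAA in 12.3% of all promoters. The whole Lrp2 window held 18 CG dinucleotides at a GC content of 66.4%, and the Cyp27b1 window held 1 at 54.4%, where the medians over all promoters were 6 and 52.4%.

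Of the enzyme pair, Cyp24a1 was the gene with the widest range over the mice. Its value was 12.58, 7.72 and 6.02 in the young mice, 5.33, 3.53 and 4.97 in the old mice, and 24.97, 26.13 and 53.94 in the 3HB mice. The 3HB mice were thus all higher than the other 6 mice, the old mice were all lower than the young mice, and 3HB mouse 3 was far above the other 3HB mice. The mean was 8.77 ± 3.40 in the young, 4.61 ± 0.952 in the old and 35.01 ± 16.4 in the 3HB group (SD, n = 3 each). The lowest 3HB mouse was 4.68 times the highest old mouse and 1.98 times the highest young mouse. In bulk kidney, a change in the number of cells that express a gene and a change in RNA per cell cannot be told apart.

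The comparison of 3HB with old asks what the treatment changed in the aged kidney, and it was the one for which Cyp24a1 had been listed. On the scale of log2(value + 1), the Cyp24a1 level of 3HB mice exceeded that of old mice by 2.61 (SE 0.38), which put it first in size among the 100 genes listed for this comparison alone. The young mice had not been used for that listing, but the old mice had, as its low side, so the comparison of old with young is not free of the selection. There Cyp24a1 was lower in old than in young mice by 0.76 in size (log2 difference -0.76, SE 0.32), without overlap (exact permutation test, two-sided, p = 0.1, below which 3 against 3 cannot go). Among the 100 genes listed for 3HB alone, the old and young mice did not overlap in 11.0%, and Cyp24a1 had the third lowest difference with age of that list. Against the young mice, the 3HB mice were higher in Cyp24a1 by 1.85 (SE 0.45), again without overlap (exact permutation test, two-sided, p = 0.1), and here the 3HB mice had been the high side of its listing. Rescaling with size factors from listed genes, which had themselves been called for differing between groups, lowered this difference to 1.21. An exact permutation test of any difference among the 3 groups gave p = 0.00357, the smallest that 1680 arrangements of the 9 mice allow, on mice that had served to list the gene.

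Cyp27b1, the activating enzyme, had another order of groups. Its value was 2.23, 0.99 and 1.87 in the young mice, 6.67, 7.31 and 9.05 in the old mice, and 6.92, 2.00 and 2.80 in the 3HB mice. All old mice were above all young mice, while the 3HB group was split, with mouse 1 inside the range of the old mice and mice 2 and 3 near the young mice. The mean was 1.70 ± 0.638 in the young, 7.68 ± 1.23 in the old and 3.91 ± 2.64 in the 3HB group (SD, n = 3 each).

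Cyp27b1 had been listed for age, and its log2 difference of old from young mice was 1.71 (SE 0.24) on the scale of log2(value + 1), while the mean of the values as deposited was 4.52 times that of young mice. The 3HB mice had not been used for its listing, but the old mice had, as its high side, so the comparison of 3HB with old is not free of the selection either. The 3HB mice had a lower mean than the old mice by a log2 difference of -0.94 (SE 0.44), but with overlap (exact permutation test, two-sided, p = 0.2). Among the 376 genes listed for age alone, only 11.7% showed no overlap between 3HB and old mice. By the size of its mean difference, Cyp27b1 was 22nd of these 376 genes and had the 8th lowest difference. Without 3HB mouse 1, the log2 difference was -1.35 and the remaining 3HB mice lay below all old mice. Against young mice the 3HB mice were higher by 0.76 (SE 0.47), with overlap (exact permutation test, two-sided, p = 0.2). After rescaling with size factors from listed genes, themselves called for differing between groups, they were higher by 0.31. The exact permutation test over the 3 groups gave p = 0.0179, again on mice used to list the gene. It rested on single mice, and without young mouse 2, for example, p was 0.0786.

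**Figure D1:**
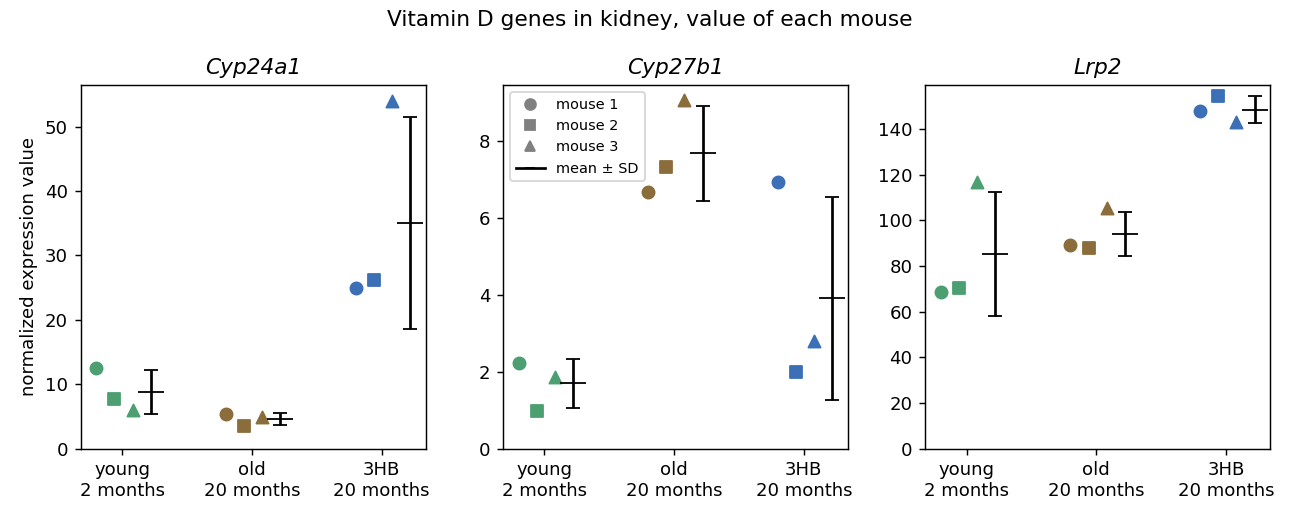
Normalized expression value of Cyp24a1, Cyp27b1 and Lrp2 (vertical axes, from 0) in each of the 9 mice, by group (horizontal axis), with the symbol giving the number of the mouse and the black bar the mean ± SD of 3 mice. The 3HB mice lay above all others in Cyp24a1 and Lrp2, and in Cyp27b1 they spread from 2.00 to 6.92 beside old mice at 6.67 to 9.05.

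Lrp2, the uptake receptor, had the highest value of the members in every mouse and the lowest coefficient of variation in every group. Its value was 68.59, 70.38 and 116.60 in the young mice, 89.42, 87.86 and 105.30 in the old mice, and 148.08, 154.52 and 143.00 in the 3HB mice. The 3HB mice were the highest 3 of 9, and young mouse 3 stood above every old mouse while the other young mice stood below them. The coefficient of variation was 31.9% in the young, 10.2% in the old and 3.89% in the 3HB group. Lrp2 had been listed for 3HB, where its log2 difference from old mice was 0.66 (SE 0.09), and the mean of the values as deposited was 1.58 times that of old mice.

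The log2 difference of Lrp2 between old and young mice was 0.18 (SE 0.26), with overlap between them (exact permutation test, two-sided, p = 0.6). The 3HB mice, which had been the high side of its listing, exceeded the young mice by 0.84 (SE 0.25) without overlap (exact permutation test, two-sided, p = 0.1). The exact permutation test over the 3 groups gave p = 0.025, with the same limit on its use, and p rose to 0.0464 to 0.0786 when any 1 mouse other than young mouse 3 was left out. Young mouse 3 stood apart from the other young mice in this set of genes. Of the 43 genes listed for 3HB alone that were higher with 3HB, it had the highest young value in 40, Lrp2 among them, and of the 57 that were lower it had the lowest young value in 39. Cyp24a1 was one of the exceptions, since young mouse 3 had its lowest young value. Without that mouse, the log2 differences of Lrp2 were 0.43 between old and young and 1.08 between 3HB and young mice.

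Lrp2 also differs from the other members in length. The genes listed for 3HB alone had a median longest transcript of 4665 nt where they were higher with 3HB and of 1449 nt where they were lower, and none was longer than Lrp2. The part of transcript length or of the state of young mouse 3 in the Lrp2 values was not tested. When the values were rescaled with size factors from listed genes, the log2 difference of Lrp2 between old and young turned to -0.04, and that between 3HB and young shrank to 0.15. The factors for 3HB against young came from the 357 listed genes that were above 0 in every mouse, of which 244 had been listed for age alone. That rescaling alone shifted log2 differences between 3HB and young by -0.692 without a pseudocount. Size factors presume that most of the genes used do not differ. Of all 489 listed genes, however, 327 were higher and 162 lower in 3HB than in young mice. The rescaling can thus remove part of a true difference, and it cannot tell such a difference from scaling.

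The members did not share one pattern. Between 3HB and old mice, 2 of the 3 members were free of overlap (Cyp24a1 and Lrp2), where 29.7% of all 489 listed genes showed no overlap. The old and young mice did not overlap in 2 of 3 (Cyp24a1, lower in old, and Cyp27b1, higher in old), where the share of all listed genes was 75.9%. The 3HB and young mice did not overlap in 2 of 3 (Cyp24a1 and Lrp2), beside 73.0% of all listed genes. These shares come from genes called on the same mice, and nothing about the members is read from them.

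The ratio of Cyp24a1 to Cyp27b1 sets the inactivating against the activating enzyme within each mouse, and it does not depend on the scaling of a library. The ratio was 5.64, 7.80 and 3.22 in the young mice, 0.799, 0.483 and 0.549 in the old mice, and 3.61, 13.1 and 19.3 in the 3HB mice. Cyp24a1 was thus above Cyp27b1 in all 6 young and 3HB mice and below it in all 3 old mice. The geometric mean of the ratio was 5.21 in the young, 0.596 in the old and 9.68 in the 3HB group.

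**Figure D2:**
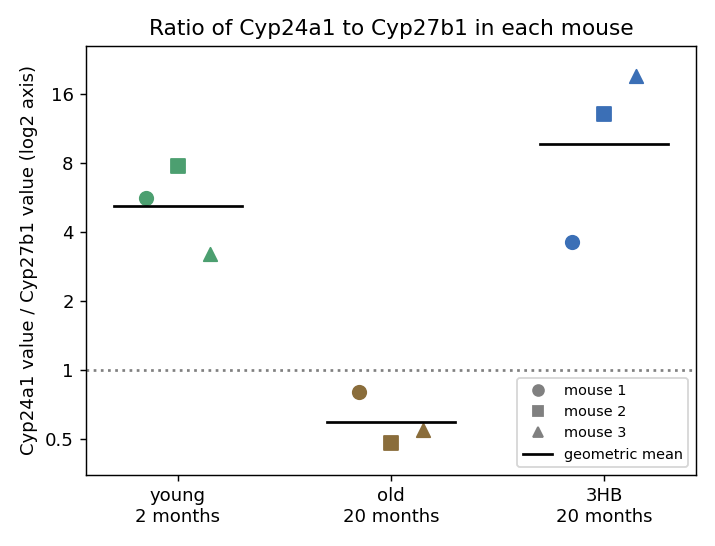
Ratio of the Cyp24a1 value to the Cyp27b1 value in each mouse on a log2 axis, by group, with the symbol giving the number of the mouse, the black line the geometric mean of 3 mice and the dotted line equal values. The 3 old mice lay below 1, between 0.483 and 0.799, and the other 6 mice lay between 3.22 and 19.3.

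The log2 ratio was lower in old than in young mice by a difference of -3.13 (SE 0.43) and higher in 3HB than in old mice by 4.02 (SE 0.76), and neither pair of groups overlapped (exact permutation tests, two-sided, p = 0.1 in both). The 3HB mice and the young mice overlapped, with a log2 difference of 0.89 (SE 0.82, exact permutation test, two-sided, p = 0.3). The overlap rested on 3HB mouse 1, without which the difference was 1.61 and the remaining 3HB mice lay above all young mice. Without 3HB mouse 3 the difference was 0.40. Over the 3 groups, the exact permutation test of the log2 ratio gave p = 0.0107. Both enzymes had been listed through the old mice, Cyp24a1 with them as its low side and Cyp27b1 with them as its high side, so a low ratio in old mice was selected through both genes, and these p-values are a description and no support.

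The 2 enzymes had unequal parts in these differences. Between old and young mice, the difference in Cyp27b1 made up 71.8% of the log2 difference of the ratio and the difference in Cyp24a1 made up 28.2%. Between 3HB and old mice the order was turned, with 70.9% from Cyp24a1 and 29.1% from Cyp27b1. In each of these comparisons the enzyme with the larger part was the one listed for it. The turned order was thus favoured by the selection and is only described. The 3HB mice had ratios in the range of the young mice or above it, with Cyp24a1 above all young mice and Cyp27b1 overlapping them. Without pseudocount, Cyp24a1 was higher in 3HB than in young mice by 1.97 (SE 0.48) and Cyp27b1 by 1.08 (SE 0.64) on the log2 scale.

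**Figure D3:**
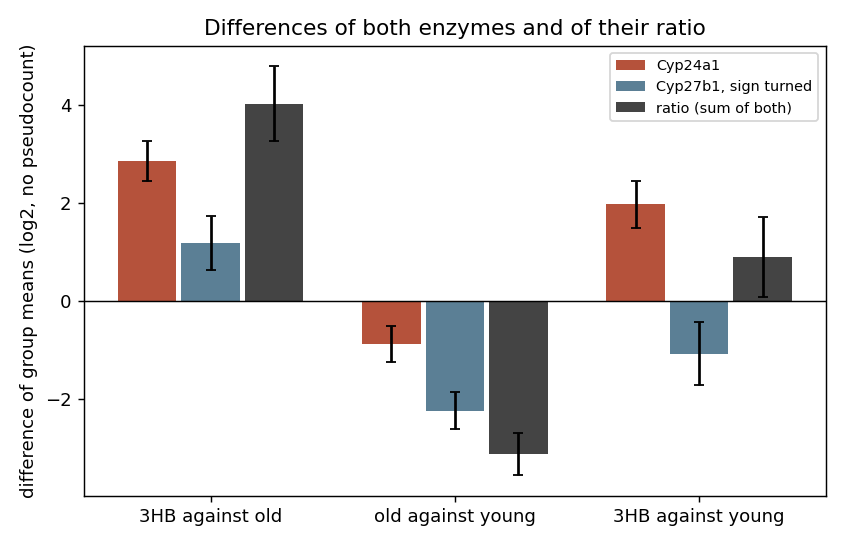
Difference between group means of log2 values without pseudocount (vertical axis) for Cyp24a1, for Cyp27b1 with its sign turned and for the ratio, which is their sum, in 3 comparisons (horizontal axis), with error bars of 1 SE from 3 mice per group. Cyp24a1 had the larger bar for 3HB against old (2.85), and Cyp27b1 had the larger bar for old against young (-2.25). Each was the comparison for which that gene had been listed, which favours this order.

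Within the 3HB group, the mouse with the highest Cyp27b1 (mouse 1, at 6.92) had the lowest Cyp24a1 (24.97) and the lowest ratio (3.61). Mouse 3 had the highest Cyp24a1 and the highest ratio, and mouse 2 had the lowest Cyp27b1. The ratio therefore spread by 5.34 times within the 3HB group, beside 1.65 times among the old and 2.42 times among the young mice. With 3 mice in a group, no relation between the enzymes was tested.

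The rest of the pathway was looked up by lists of vitamin D metabolism and receptor genes (13 symbols), the megalin endocytic apparatus (16), renal calcium and phosphate transport (22) and hormonal control of the enzymes (21). None of these 72 symbols was in either table. Among them are Vdr, the receptor of calcitriol, Cubn, the partner of megalin in uptake, and Kl, the co-receptor for FGF23, and genes absent from the tables were not analysed here. No other gene of the LDL receptor family was listed. The other cytochrome P450 genes listed were Cyp4a12b and Cyp2d12, both for age. Cyp2d12 was at 1.63 to 3.39 in young, 10.76 to 56.58 in old and 7.82 to 134.22 in 3HB mice. Cyp4a12b, a fatty acid hydroxylase, was at 0.81 to 1.38 in young, 2.69 to 5.88 in old and 3.99 to 5.76 in 3HB mice. In both of these genes the old and 3HB mice overlapped, as in Cyp27b1.

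The deposited annotation ties a few other listed genes to the members, and these were picked after their values had been seen. A GO term naming vitamin D was attached to Cyp24a1, Cyp27b1 and Stc1. Stc1 encodes stanniocalcin 1, a hormone linked to calcium and phosphate balance, and it had means of 1.02 ± 0.246 in the young, 3.51 ± 1.22 in the old and 4.08 ± 1.89 in the 3HB group (SD, n = 3 each). The KEGG pathway of parathyroid hormone held both enzymes together with Sost and Cdkn1a. Sost, which encodes sclerostin, an inhibitor of Wnt signalling, had means of 0.307 ± 0.10 in the young, 3.23 ± 1.51 in the old and 3.29 ± 0.836 in the 3HB group. Cdkn1a, which encodes the cell cycle inhibitor p21, had means of 2.96 ± 1.18 in the young, 10.5 ± 1.30 in the old and 13.7 ± 2.36 in the 3HB group. A GO term of calcium ion homeostasis held Cyp27b1 with Stc1 and Atp2a2. Lrp2 shared the KEGG pathway of cholesterol metabolism with the apolipoprotein genes Apoh and Apoe, and the Reactome pathway of fat-soluble vitamins with Apoe and Lrat, which encodes an enzyme that esterifies retinol. Apoh was at 6.61 to 11.72 in young, 37.27 to 43.44 in old and 42.77 to 48.19 in 3HB mice. Apoe was at 139.90 to 185.64 in young, 260.49 to 1395.60 in old and 213.66 to 634.40 in 3HB mice. Lrat was at 0.04 to 0.25 in young, 0.28 to 1.80 in old and 0.15 to 0.75 in 3HB mice. All of these genes but Atp2a2 had been listed for age. The mean of the 3HB mice lay above that of the old mice in Stc1, Sost, Cdkn1a and Apoh and below it in Apoe and Lrat, as it did in Cyp27b1, and the old and 3HB mice overlapped in each of these but Cdkn1a.

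Other listed genes of the proximal tubule, the segment where megalin acts, were Keg1, Slc7a12, Vcam1 and Havcr1, which were 4 of 32 symbols looked up. Keg1, a kidney expressed gene, was at 1076.24 to 1636.64 in young, 704.33 to 962.33 in old and 857.89 to 1297.32 in 3HB mice. Its mean was lowest in old mice, and the 3HB mice overlapped with both other groups. The injury marker Havcr1 was at 0.93 to 5.30 in young, 8.26 to 11.77 in old and 7.38 to 10.53 in 3HB mice. Vcam1, an adhesion molecule that injured tubule cells also make, was at 0.90 to 1.45 in young, 7.58 to 14.37 in old and 6.97 to 7.49 in 3HB mice. The amino acid transporter gene Slc7a12 ran from 1.64 to 24.11 in 3HB mice and from 1.93 to 12.96 in old mice. All 4 had been listed for age alone, and in none were the 3HB mice above all others. Cyp24a1 and Lrp2, where they were, had been listed for 3HB, so this contrast is shaped by the listing. Among the 100 genes listed for 3HB alone, the 3HB mice lay above all old mice in 43 and above all young mice in 27. The labels name kidney as the tissue, while 1 methods paragraph names muscle. Of 14 kidney markers, Lrp2 and Keg1 were listed, at 68.59 or more and 704.33 or more in every mouse. Of 7 skeletal muscle markers none was listed, which says nothing of the tissue because genes that were not called are absent.

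Markers of other cells were looked up because Cyp27b1 is also known to be expressed by activated macrophages. Of 9 such markers, Lyz2 (macrophages and other myeloid cells) and Cd79a (B cells) were listed, both for age, and neither was at 0 in any mouse. Lyz2 was at 7.54 to 8.69 in young, 22.92 to 72.01 in old and 34.25 to 42.87 in 3HB mice. It was thus higher in all old than in all young mice, as Cyp27b1 was. Lyz2 was at 42.87 and 37.33 in 3HB mice 2 and 3, where Cyp27b1 was low, and at 34.25 in 3HB mouse 1, where Cyp27b1 was high. Mmp12, the macrophage elastase gene, went the other way, at 2.31 in 3HB mouse 1 and at 1.19 and 0.89 in mice 2 and 3. Mmp12 was not one of the 9 markers. It came from the search below for the listed genes most like Cyp27b1 (r = 0.932), so its likeness was set by that choice. Cd79a was at 0.13 to 0.21 in young, 0.70 to 3.68 in old and 1.65 to 2.66 in 3HB mice. The part of these cells in the Cyp27b1 values was not tested.

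The listed genes most like each member were found by Pearson's r of log2(value + 1) over the 9 mice, among 449 candidates with a mean of 1 or more in some group. The r is a description, because mice of 1 group share their group level and because these same mice had served for the calls. For Cyp24a1, the 5 nearest genes were Gm13697 (r = 0.923), Plau (0.836), Gm47283 (0.832), Hyou1 (0.770) and Dusp4 (0.760). Plau, which encodes the urokinase plasminogen activator, was at 182.74 to 213.27 in young, 176.60 to 258.69 in old and 368.61 to 503.65 in 3HB mice. The 3HB mice were above the other 6 mice in Plau as in Cyp24a1, but the old mice were not below the young ones. Hyou1, a chaperone of the endoplasmic reticulum, was at 19.13 to 24.88 in old and 37.04 to 47.40 in 3HB mice. Dusp4, a phosphatase that inactivates MAP kinases, was at 1.55 to 2.94 in old and 5.26 to 7.18 in 3HB mice. Gm13697, a predicted gene, had been listed for age and was at 0.15 to 0.67 in young, 0 to 0.08 in old and 0.78 to 1.57 in 3HB mice, with the order of groups that Cyp24a1 had. All its values were low. It became a candidate only through its 3HB mean of 1.18, in the group where Cyp24a1 is high, so its rank is partly set by the filter.

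For Cyp27b1, the nearest genes were Mmp12 (r = 0.932), H2bc3 (0.869), Lgals3bp (0.861), Cxcl10 (0.860) and Gm11249 (0.857). Mmp12 was at 0.74, 0.26 and 0.74 in young, 3.63, 1.99 and 2.89 in old and 2.31, 1.19 and 0.89 in 3HB mice. Cxcl10, a chemokine induced by interferon, was at 3.61, 0.57 and 1.39 in young, 5.22, 2.85 and 6.15 in old and 3.81, 1.57 and 1.80 in 3HB mice. In both genes, as in Cyp27b1, 3HB mouse 1 was the highest of its group. Lgals3bp, a secreted glycoprotein that binds galectins, was at 14.95 to 26.24 in young, 36.37 to 51.29 in old and 25.36 to 33.06 in 3HB mice. H2bc3, a histone gene, was listed at 0 in all young mice.

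For Lrp2, the nearest genes were Cemip2 (r = 0.991), Mgat3 (0.976), Atp2a2 (0.974), Vcp-rs (0.974) and Ptpn13 (0.971), all listed for 3HB. Atp2a2, the calcium pump of the endoplasmic reticulum, was at 38.41, 49.62 and 101.11 in young, 57.31, 58.31 and 71.05 in old and 106.06, 120.56 and 109.61 in 3HB mice. Mgat3, a glycosyltransferase of N-glycans, was at 11.78, 15.35 and 25.59 in young, 20.53, 19.73 and 26.01 in old and 33.97, 35.93 and 37.41 in 3HB mice. In these genes young mouse 3 stood above the other young mice, as it did in Lrp2. Vcp-rs is named as a sequence related to Vcp, and reads could have been split between such copies, so its value is uncertain. Ranking by Spearman's rho kept 2 of the 5 genes for each member and replaced the others, so membership of these sets depends on the measure of likeness.

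**Figure D4:**
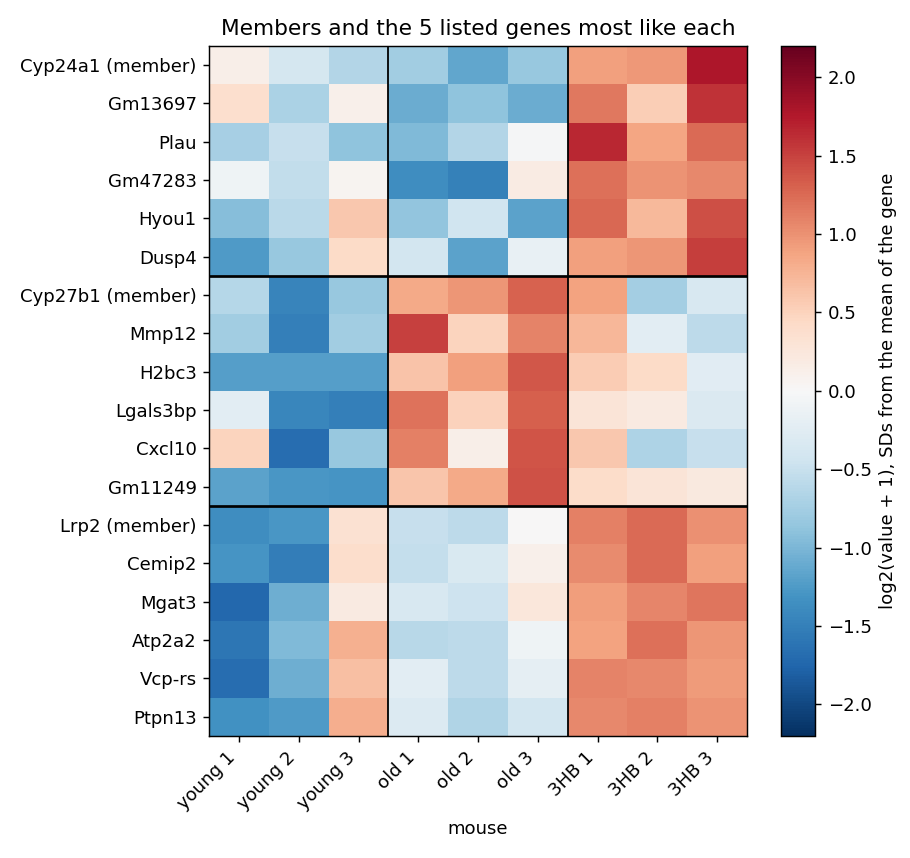
Each member and the 5 listed genes most like it (rows) in the 9 mice (columns), as log2(value + 1) in SDs from the mean of the gene, red above and blue below. Cyp24a1 and Lrp2 were highest in the 3HB columns, while Cyp27b1 was high in the old columns and in 3HB mouse 1. Young mouse 3 was above the other young mice in Lrp2 and the 5 genes below it.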

How the data were processed

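The authors deposited 2 tables of called genes with normalized expression values (a signal with 2 decimals) for each of the 9 kidneys, and columns were assigned to samples by name. The processing notes of the submitters name CASAVA, HISAT2, StringTie and GRCm38, and the roles, the versions, the unit, the annotation and the threshold of the calls are not given in the sources used here. Libraries were sequenced as paired reads of 150 bp. Genes in both tables (13) carried the same values in both. Without the genes that were not called, no fit across all genes could be made.

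Differences were computed between group means of log2(value + 1), and for the ratio of Cyp24a1 to Cyp27b1 on log2 without pseudocount, with the SE from both SDs. Tests were exact permutation tests, two-sided for 2 groups (12 comparisons, smallest p 0.1) and on the F ratio for 3 groups (4 tests). They were not adjusted over these genes. Genes named in the text are the members, listed members of the gene lists, the 5 listed genes nearest to each member and, added after values were seen, genes that share annotation with the members. Members and lists were chosen with earlier results of these data known. The statistics were tested on simulated data. Alternatives were the pseudocount, medians, arithmetic means, rescaling, ranks, a limit on low values, each mouse left out, and pairing by number. Values were computed with scipy 1.17.1 and pandas 2.3.3 under Python 3.11.15 (numpy 2.4.6), and plots were drawn with matplotlib 3.10.9. Positions came from GENCODE M21 and promoters from RefSeq. Precision rests on 3 mice per group.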

Additional observations from a re-analysis of the deposited data

How the results depend on the processing

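Each of the 12 differences between 2 groups kept its direction when any 1 mouse was left out. The ranges of the log2 difference over these runs, for 3HB against old, old against young and 3HB against young in turn, were 2.26 to 2.80, -0.97 to -0.49 and 1.497 to 2.11 for Cyp24a1, and -1.35 to -0.65, 1.501 to 1.85 and 0.35 to 1.05 for Cyp27b1. They were 0.61 to 0.74, 0.05 to 0.43 and 0.71 to 1.08 for Lrp2, and 3.53 to 4.73, -3.48 to -2.84 and 0.40 to 1.61 for the ratio. The p of the test over 3 groups ran from 0.00357 to 0.00714 for Cyp24a1, from 0.00714 to 0.0786 for Cyp27b1, from 0.00357 to 0.0786 for Lrp2 and from 0.00357 to 0.0214 for the ratio. It rose above 0.05 for Lrp2 without any 1 of 7 mice (all but young mouse 3 and old mouse 3), and for Cyp27b1 it was at or above 0.05 without young mouse 2 or 3 or old mouse 2 or 3. With ranks, p was 0.05 for Lrp2. Rescaling by size factors from listed genes gave 1.21 for Cyp24a1 in 3HB against young, and for Lrp2 it gave 0.15 in 3HB against young and -0.0397 in old against young, where the direction turned. This follows from the factors, which came from genes called for differing between groups and shifted these differences by -0.692 and -0.225. For Cyp27b1 in old against young, the log2 difference was 2.17 with a pseudocount of 0.1, 2.25 without one and 2.18 from arithmetic means, since a pseudocount of 1 weighs on values near 1. With a pseudocount of 1 on both genes, the ratio differed by -2.47 between old and young. The same-numbered samples did not deviate together, with correlations from -0.24 to 0.16 over 9 pairs. With the replicate block, p over 3 groups was 0.0278 for Cyp24a1, the smallest this design allows, and 0.0556 for Cyp27b1, Lrp2 and the ratio, while every difference of means stayed the same by construction. No flag for a single far value was possible with 3 mice per group.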
